A study of Mus musculus with 14 samples.

Results

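Complexes II, III and IV of the mitochondrial respiratory chain were followed through 31 nuclear genes, out of 55401 genes counted, in APEX-seq libraries of mouse small intestinal organoids (sIOs). The genes were taken by symbol, without pseudogenes: 4 subunits of complex II, 9 of complex III, cytochrome c (Cycs), 10 subunits of complex IV and 7 complex IV assembly factors. All 31 were in the table. APEX2 is a peroxidase that attaches biotin-phenol to RNA close to it once H2O2 is added, and the biotinylated RNA is then captured on streptavidin and sequenced. The sIOs were grown from crypts of adult C57BL/6 J mice and carried 1 of 4 fusions, stably integrated from a lentivirus: APEX2-DPP4, placed by the membrane protein DPP4 at the apical surface (4 libraries), APEX2-GFP and APEX2-ACTB, both cytoplasmic controls (4 libraries each), or MITO-V5-APEX2, a mitochondrial fusion the study also calls the COX4 construct (2 libraries, MITO-1 and MITO-1c). Biotin-phenol and H2O2 were given in every group other than the MITO control, which had no H2O2. The labels do not give the treatment of the MITO libraries, and the c of MITO-1c was read as that control. The labels do not say whether replicates were grown as separate cultures, so p-values measure the spread between these libraries only, which may be technical. Each whole organoid culture was labeled, so fewer cells of a type and less RNA per cell cannot be told apart.

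Complex II, succinate dehydrogenase, oxidizes succinate in the citric acid cycle and hands the electrons to ubiquinone. Complex III passes them from ubiquinol to cytochrome c, and complex IV, cytochrome c oxidase, passes them on to oxygen. Complexes III and IV pump protons and complex II does not. Complex II is encoded wholly in the nucleus, whereas cytochrome b of complex III and the 3 catalytic core subunits of complex IV are encoded in the mitochondrial genome. The nuclear subunits are translated in the cytoplasm and imported, and the respiratory chain supplies ATP for nutrient uptake by enterocytes, the absorptive cells of the gut. The question asked of these genes was whether their RNA differed between the apical and the cytoplasmic baits, and with H2O2 at the mitochondrial bait.

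Many genes of the respiratory chain are controlled through promoter elements for the factors NRF1 and GABP, the latter an ETS protein, and Cycs also through an element for CREB. Promoters of 3 genes that held 2 of these elements are therefore shown, as the 250 bases before the RefSeq start (GRCm38.p6), 5′ to 3′, with the matches in capitals.
Cox6a1 (chr5:115348959-115349208, minus strand): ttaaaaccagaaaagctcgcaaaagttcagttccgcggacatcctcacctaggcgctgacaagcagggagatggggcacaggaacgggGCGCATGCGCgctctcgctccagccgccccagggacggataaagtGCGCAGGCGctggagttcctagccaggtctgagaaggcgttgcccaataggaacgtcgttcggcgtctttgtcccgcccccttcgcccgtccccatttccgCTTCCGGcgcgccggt
Cycs (chr6:50566570-50566819, minus strand): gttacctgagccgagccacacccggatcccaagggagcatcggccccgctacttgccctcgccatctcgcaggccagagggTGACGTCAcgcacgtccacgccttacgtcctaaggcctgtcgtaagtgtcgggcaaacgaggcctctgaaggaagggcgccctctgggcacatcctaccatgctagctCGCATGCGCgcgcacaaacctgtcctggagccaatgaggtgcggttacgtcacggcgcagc
Sdhd (chr9:50603850-50604099, minus strand): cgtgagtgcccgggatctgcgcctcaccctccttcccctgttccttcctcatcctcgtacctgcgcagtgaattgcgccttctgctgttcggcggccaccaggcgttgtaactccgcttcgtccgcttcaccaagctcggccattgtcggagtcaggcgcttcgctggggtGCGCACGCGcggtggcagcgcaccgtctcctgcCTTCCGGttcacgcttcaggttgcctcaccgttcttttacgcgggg
The letters searched on both strands were GCGCANGCG for NRF1, CCGGAAG for ETS proteins, AANATGGCG for YY1 and TGACGTCA for CREB. A promoter was found for 23 of the 31 genes. NRF1 letters stood in 4 of the 23 (Cox6a1, Cycs, Sdha and Sdhd) and in 5.16% of 32851 promoters of the same length. ETS letters stood in 7 (Cox10, Cox6a1, Cox6b1, Sco1, Sdhd, Uqcr11 and Uqcrh), against 6.91% of all promoters. CREB letters stood in Cycs and Uqcrfs1, against 1.55%, and YY1 letters in none of the 23, against 1.12%. In Cox6a1, 2 of the 3 NRF1 matches overlap. A match is a description of the letters, not of binding.

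Library totals ran from 9442594 to 36492010 counts for the 12 libraries of the DPP4, GFP and ACTB baits and were 18268471 and 18716681 for MITO-1 and MITO-1c. Levels below are normalised CPM, that is, counts divided by the library total and its TMM factor, and are given in the order of replicates 1 to 4. Organoid markers were checked first. Summed epithelial markers (7 genes) lay at 3220 to 10910 normalised CPM in the 12 libraries, and mesenchymal markers (7 genes) at 0.0325 to 33.1. Summed enterocyte markers (16 genes) ran from 197 to 98670 within the same 12 libraries and from 460.2 to 98670 among the 4 DPP4 libraries alone. Markers of fetal or regenerative epithelium (6 genes found) ran from 23.7 to 29270. Marker levels thus differed between libraries of 1 bait as well as between baits.

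DPP4 replicate 3 stood apart in the respiratory genes. Of the 28 genes that averaged 10 normalised CPM or more, 21 had their lowest value of the 12 libraries there, as did 23.9% of all 9713 genes at that level. Cox7a2 (ENSMUSG00000032330.7, chromosome 9, 79755361 to 79759878, minus strand), a nuclear-encoded supernumerary subunit of complex IV, stood at 240.0, 163, 2.58 and 74.95 normalised CPM with DPP4, 66.9, 139.5, 166 and 72.4 with GFP and 52.3, 188, 109 and 73.7 with ACTB. Replicate 3 of DPP4 was thus 20.3-fold below the next lowest library. The other 3 genes of the 31 were low everywhere: Cox4i1 had 0 counts in 14 libraries, Cox17 had 149 counts in all and Sco2 had a median of 4.84 normalised CPM. Fold changes and medians that involve DPP4 are therefore also given without replicate 3.

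The low values of DPP4 replicate 3 went with the length of the gene. The counts behaved as counts over whole gene spans, introns included, and across 8852 protein-coding genes the difference of replicate 3 from the median of the other 3 DPP4 libraries had a median log2 of -1.71 for spans under 5 kb, -0.79 for 5 to 10 kb, -0.34 for 10 to 20 kb, 0.08 for 20 to 50 kb and 0.62 over 50 kb. Most respiratory genes are compact, and 18 of the 28 spanned under 10 kb. They also lay lower than other genes of their length: 24 of 28 were below the median of their span class and 10 were below its 10th percentile. Those 10 were Uqcr10, Cox8a, Cox7a2, Uqcrfs1, Cox7b, Uqcrh, Cox6b1, Cox5a, Cox6c and Uqcrc2, subunits of complexes III and IV. Members of complex II and the assembly factors were not among them. Cyc1, cytochrome c1 of complex III, has a span of only 2738 bases and differed by -0.32, and Sdhc, the large cytochrome b subunit of complex II, with 23439 bases, by 0.61. What sets this library apart was not tested.

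**Figure D1:**
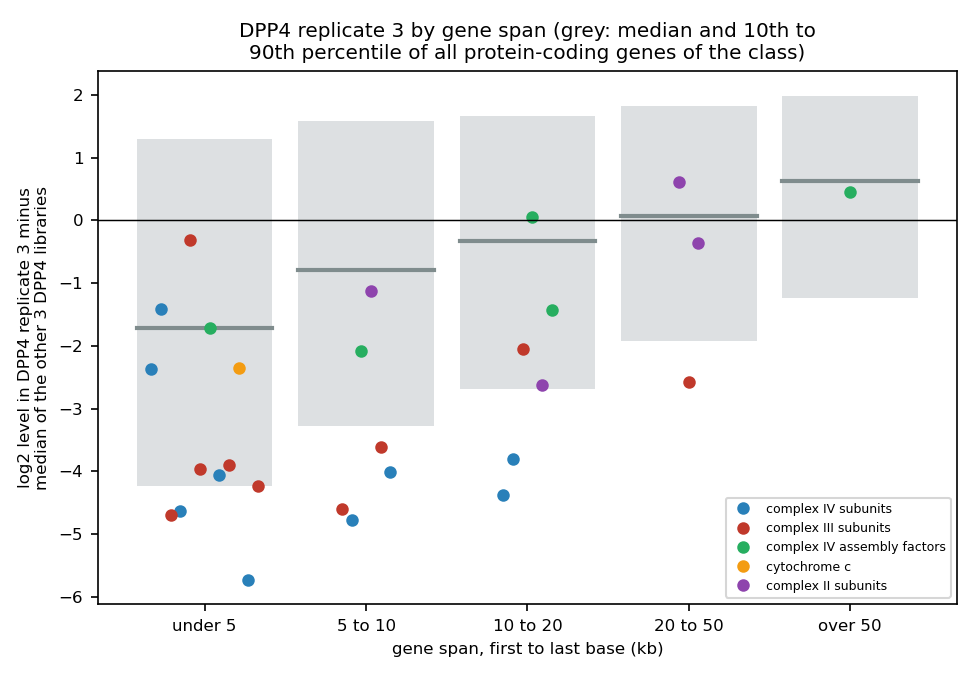
Each point is 1 of 28 respiratory genes, by its class of gene span in kb (x axis) and the log2 difference of its level in DPP4 replicate 3 from the median of the other 3 DPP4 libraries (y axis). Grey lines and bands give the median and the 10th to 90th percentile of all protein-coding genes of the class; Cox7a2, at -5.73, lies lowest, and 24 of the 28 points lie under the grey line.

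The span counting left some of the genes unreadable. Of protein-coding genes that lie within the span of another gene on the same strand, 416 of 416 had 0 counts in all 14 libraries, against 14.04% of 705 that lie only within a gene of the other strand and 9.64% of 20087 within no other gene. Cox4i1, subunit 4 of complex IV (chromosome 8, 120668222 to 120674207, GRCm38), lies wholly within Gm20388, which had 876 to 1333 normalised CPM in the 12 libraries, so its 0 is no measurement of its expression. Cox17, a copper chaperone, has 49 of its 5773 bases free of Gm21987 on its own strand, and Sco2, which also delivers copper, has 294 of 2210 bases free of Tymp. Runs of 75 bases shared with other annotated transcripts made up 50.4% of the Cox7c transcript, 29.1% of Uqcrb, 26.1% of Cycs and 17.2% of Cox5b. On the other strand, Tom1l1 overlaps 56.2% of the exons of Cox11 and Gm26631 41.7% of those of Cox5a. Levels of these 6 genes are therefore uncertain. So are those of Cox6c, with 43.2% of its span over Vps13b on the other strand, and of Uqcrc2, with 23.8% of such runs shared with Pdzd9.

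Across the 12 libraries the respiratory genes were high or low in the same libraries, in each bait. In DPP4 replicate 1, DPP4 replicate 2, GFP replicate 2, GFP replicate 3 and ACTB replicate 2, 24 to 27 of the 28 genes lay above their own median, where 44.0% to 56.3% of all 9713 genes did. In DPP4 replicates 3 and 4, GFP replicate 1 and ACTB replicates 1 and 4, 2 to 4 of the 28 did, where 42.3% to 56.5% of all genes did. GFP replicate 4 (8 genes) and ACTB replicate 3 (17 genes) lay between. Each bait thus had at least 1 library of the high kind and 1 of the low kind. The 33 nuclear complex I subunits at this level behaved alike, with 27 to 33 above their median in those 5 high libraries and 2 to 7 in the 5 low ones. Of the 5 high libraries, 4 held the 4 largest enterocyte sums (98670 in DPP4 replicate 1, 21000 in GFP replicate 2, 52310 in GFP replicate 3 and 55850 in ACTB replicate 2), and the fifth, DPP4 replicate 2, held 9172. DPP4 replicate 3, of the low libraries, held 10210, more than DPP4 replicate 2, and the other 4 low libraries 197 to 1988. Summed stem cell markers (8 genes) were at 20.4 to 285 in the 5 high and 114 to 337 in the 5 low libraries, and proliferation markers (10 genes) at 109 to 1115 and 404 to 1298. Goblet cell markers (7 genes) were at 1978 to 10100 in the high libraries, at 7560 in DPP4 replicate 3 and at 273 to 492 in the other low ones. Fetal or regenerative markers (6 genes found) were at 23.7 to 1008 in the high and 4773 to 29270 in the low libraries. Of the low ones, DPP4 replicate 3 held 5130. The libraries in between, GFP replicate 4 and ACTB replicate 3, held 617 and 26990. The part of cell state in these levels was not tested.

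**Figure D2:**
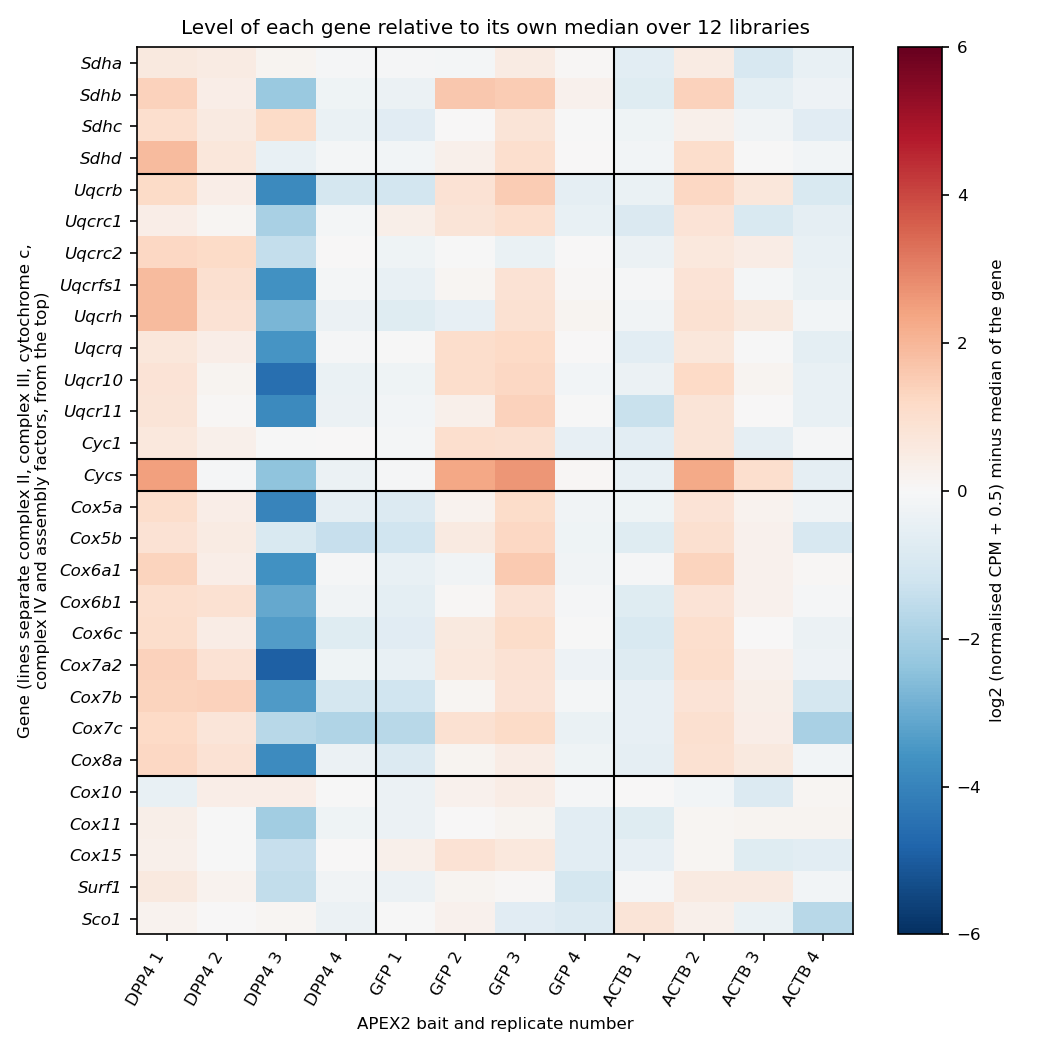
Each row is 1 of 28 respiratory genes and each column 1 of 12 libraries; color gives log2 (normalised CPM + 0.5) minus the median of that gene over the 12 libraries. DPP4 replicate 3 is the darkest blue column for complex III and IV subunits, and DPP4 replicates 1 and 2, GFP replicates 2 and 3 and ACTB replicate 2 are red for 24 to 27 genes.

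Complex II as a sum was not low in DPP4 replicate 3, where its 4 subunits came to 1010 normalised CPM, within the 941.5 to 2508 of the other DPP4 libraries. Sdha, the flavoprotein that oxidizes succinate, lies in GRCm38 at the span of ENSMUSG00000021577.14, chromosome 13, 74322254 to 74350280, minus strand, and stood at 679.7, 631, 495 and 422 normalised CPM with DPP4, 427, 408, 625 and 469 with GFP and 289, 637, 228 and 329 with ACTB. Its 4 DPP4 libraries overlapped the 4 GFP and the 4 ACTB libraries, and replicate 3 was no lower than replicate 4. Sdhc and Sdhd anchor the enzyme in the inner membrane and bind ubiquinone. Sdhd (ENSMUSG00000000171.5, chromosome 9, 50596357 to 50603812, minus strand) had the highest median level per kilobase of transcript among the 4 subunits (214 normalised CPM per kb) and stood at 999.6, 428, 196 and 242 normalised CPM with DPP4, 236, 324, 528 and 268 with GFP and 234, 557, 259 and 235 with ACTB. DPP4 replicate 1 was its highest library of the 12 and DPP4 replicate 3 its lowest. Sdhc (ENSMUSG00000058076.12, chromosome 1, 171127165 to 171150603, minus strand) had the lowest (38.2 per kb) and stood at 241, 177, 271 and 93.1 normalised CPM with DPP4, 75.8, 123, 205 and 119 with GFP and 99.7, 148, 106 and 74.9 with ACTB. Here DPP4 replicate 3 was the highest of the 12, whereas Sdhb, the iron-sulfur subunit, was lowest there at 47.4, against 136 to 676 normalised CPM in the other 11 libraries.

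Complex III carried the most abundant of the genes that could be counted. Uqcrc1 (ENSMUSG00000025651.14, chromosome 9, 108936633 to 108949623, plus strand), a core subunit, had the highest median of these, per kilobase (490.2 normalised CPM per kb) and without that scaling (810.3 normalised CPM). It stood at 1053, 864, 209 and 757 normalised CPM with DPP4, 1021, 1391, 1632 and 599 with GFP and 446, 1417, 428 and 556 with ACTB. GFP replicates 1 to 3 were above 2 or more of the libraries of either other bait, but GFP replicate 4 lay within their range. Uqcrc2 (ENSMUSG00000030884.12, chromosome 7, 120635176 to 120659524, plus strand), its partner in the core, had the lowest median per kilobase of the complex III genes (93.8) and stood at 423, 390.3, 65.1 and 181 normalised CPM with DPP4, 149, 176, 133 and 180.1 with GFP and 138, 280.2, 242 and 131 with ACTB. The 4 GFP libraries of Uqcrc2 lay within 1.35-fold of each other, the narrowest range of the 28 genes in the GFP bait, while the DPP4 libraries spread 6.497-fold. Part of Uqcrc2 overlaps Pdzd9 on the other strand (26.6% of its exons), and reads of the pair cannot be told apart without strand.

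Small subunits of complex III were high and low in largely the same libraries. Uqcrq, which lies beside cytochrome b in the complex, stood at 318, 264, 16.5 and 189 normalised CPM with DPP4, 198, 422, 465 and 202 with GFP and 131, 320.5, 198 and 134 with ACTB. Uqcr11 stood at 200.4, 124, 7.85 and 91.2 normalised CPM with DPP4, 107, 147, 309.7 and 116 with GFP and 46.3, 204, 121 and 85.4 with ACTB. GFP replicate 3 was highest for both and DPP4 replicate 3 lowest, and without that library every bait overlapped every other. Uqcrh, the acidic hinge protein that helps bind cytochrome c1 to cytochrome c, stood at 298, 146, 11.5 and 62.2 normalised CPM with DPP4, 47.5, 55.3, 148 and 88.2 with GFP and 67.0, 147, 118 and 70.3 with ACTB. Uqcrb stood at 138, 81.8, 3.89 and 29.4 normalised CPM with DPP4, 28.9, 113, 178 and 42.7 with GFP and 47.5, 148, 99.9 and 33.2 with ACTB. Uqcr10 stood at 170.3, 107, 3.64 and 73.0 normalised CPM with DPP4, 80.8, 202, 230.3 and 86.8 with GFP and 75.1, 219.9, 106 and 69.5 with ACTB. Of these, Uqcrh was highest in DPP4 replicate 1 and Uqcrb and Uqcr10 in GFP replicate 3.

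Cycs (ENSMUSG00000063694.5, chromosome 6, 50562563 to 50566538, minus strand), the soluble electron carrier between complexes III and IV, varied widely in the GFP and ACTB libraries as well as in those of DPP4. It stood at 319, 55.6, 10.5 and 45.0 normalised CPM with DPP4, 55.1, 295, 367 and 61.2 with GFP and 42.5, 280.0, 119 and 39.5 with ACTB. DPP4 replicate 1, GFP replicates 2 and 3 and ACTB replicate 2 were at 280.0 to 367, and the other 8 libraries at 10.5 to 119. Those 4 libraries were also the 4 with the largest enterocyte sums given above. Within GFP the highest library was 6.67-fold above the lowest, and within ACTB 7.10-fold. The Cycs libraries of the 3 baits overlapped, with a mean of 108 ± 142 (SD, n = 4) in DPP4, 194 ± 160.2 (SD, n = 4) in GFP and 120.2 ± 113 (SD, n = 4) in ACTB.

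Complex IV subunits, taken as a sum, stood at 2598, 1870, 139 and 815 normalised CPM with DPP4, 676, 1377, 2354 and 995 with GFP and 809, 2279, 1418 and 927 with ACTB. Relative to the complex II sum of the same library, a ratio that does not depend on library scaling, complex IV was at 0.137 in DPP4 replicate 3 and at 0.741 to 1.91 in the other 11 libraries. Complex III over complex II was at 0.657 there and at 1.60 to 2.37 in the others. These ratios are not free of gene span, with which the values of DPP4 replicate 3 went. Sdha, Sdhb and Sdhc span 17991 to 28027 bases and Sdhd 7456, whereas the complex IV subunits other than Cox4i1 span 2089 to 12361. The part of span in these ratios was not tested. Cox8a (ENSMUSG00000035885.5, chromosome 19, 7215153 to 7217616, minus strand), a small subunit of the membrane part, had the highest median per kilobase of complex IV (405 normalised CPM per kb) and stood at 526, 401, 15.7 and 175 normalised CPM with DPP4, 124, 248, 305 and 186 with GFP and 152, 419, 333 and 198 with ACTB. The bait means of Cox8a differed by less than the spread within DPP4. Cox7b had the lowest median of those that could be counted (72.0 per kb), and Cox7c had the widest range within GFP (7.15-fold) and within ACTB (7.70-fold) of the 28 genes.

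Assembly factors of complex IV had lower median levels per kilobase than its subunits other than Cox4i1. Cox10, Cox11 and Cox15 make and insert the heme a and copper groups, Surf1 helps in the heme step, and Sco1 delivers copper. Surf1 (ENSMUSG00000015790.16, chromosome 2, 26913381 to 26916530, minus strand) had the highest median per kilobase of the 7 (24.2 normalised CPM per kb) and stood at 43.5, 33.2, 9.73 and 24.3 normalised CPM with DPP4, 22.1, 31.9, 30.1 and 13.5 with GFP and 26.8, 41.6, 41.3 and 25.5 with ACTB. Cox15 (ENSMUSG00000040018.9, chromosome 19, 43733254 to 43753000, minus strand) stood at 58.6, 45.4, 17.5 and 47.9 normalised CPM with DPP4, 58.1, 86.2, 72.9 and 29.9 with GFP and 33.5, 50.1, 27.7 and 30.1 with ACTB. The highest GFP library of Cox15, replicate 2, exceeded each ACTB and DPP4 library, but GFP replicate 4 lay below 3 of the 4 DPP4 libraries. Cox10, the longest of the genes by span at 116842 bases, stood at 29.2, 52.5, 53.6 and 39.1 normalised CPM with DPP4, 31.6, 48.5, 55.5 and 38.1 with GFP and 41.3, 35.4, 22.8 and 43.0 with ACTB. It was among the few not low in DPP4 replicate 3, where it was at its highest DPP4 value. Cox17 was lowest, with 0 to 1.28 normalised CPM.

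**Figure D3:**
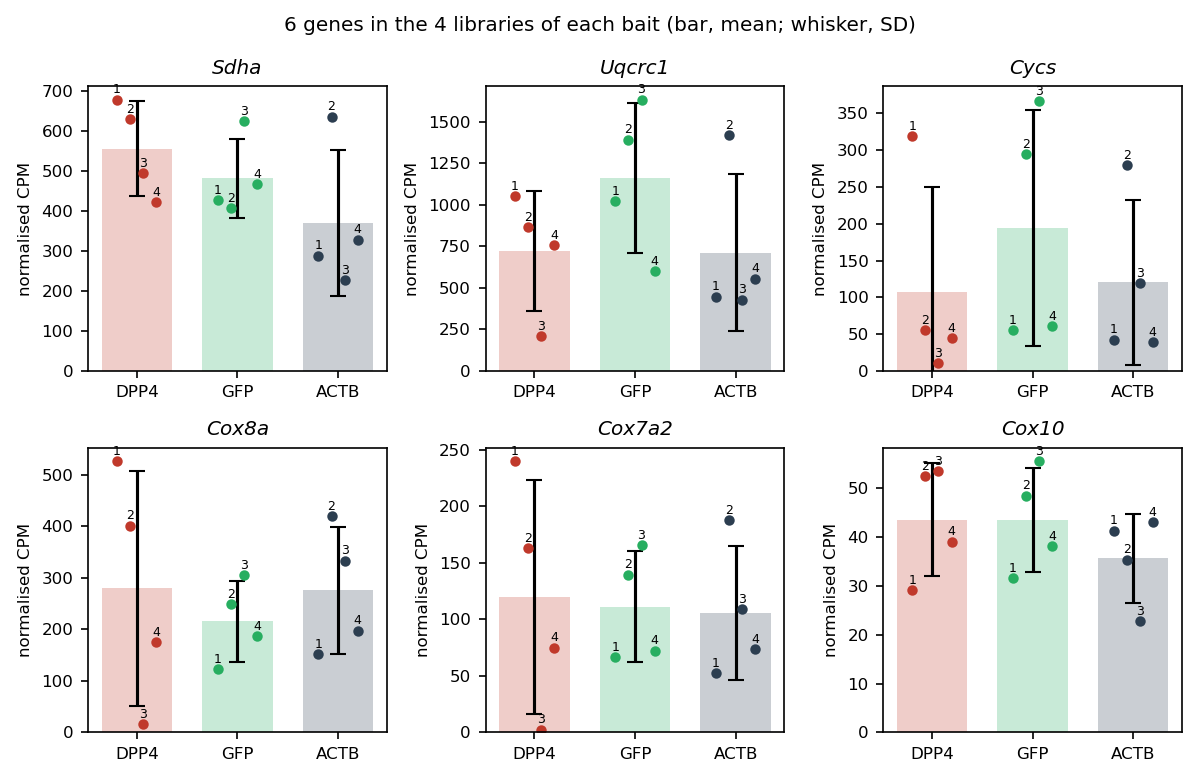
Points are the 4 libraries of each bait, numbered by replicate, and bars and whiskers their mean and SD in normalised CPM (whiskers cut at 0). Sdha and Cox10 were not low in DPP4 replicate 3, whereas Cox8a (15.7) and Cox7a2 (2.58) were near 0, and Cycs was high in 1 or 2 libraries of each bait.

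No respiratory gene passed the test between the apical bait DPP4 and the cytoplasmic bait GFP. Of 30 genes tested (Cox4i1 could not be), edgeR's quasi-likelihood test called 0 (a call needs more than a 2-fold difference and an adjusted p under 0.05; background 0% of 26136 genes). At an unadjusted p under 0.05 it was 0 of 30, against 5.87% of all genes tested, and DESeq2 called 0 of the 30 and 48 genes in all. The median log2 fold change of the 30 was -0.05, beside 0.09 over all genes, with 15 genes higher in DPP4 and 15 lower and standard errors of 0.54 to 1.89. No gene of the 29 at a mean of 1 normalised CPM or more had DPP4 libraries apart from the GFP libraries (background 2.54%). Without DPP4 replicate 3 the median was 0.23 and 19 of 30 were higher.

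The smallest p-values of this comparison were spread over complexes II and III. On the higher side, Uqcrc2 had a log2 fold change of 0.73 ± 0.59 (SE) (edgeR p = 0.23, adjusted p = 1, exact permutation p = 0.46). Its value without DPP4 replicate 3 was 1.05, and its other 3 DPP4 libraries were above the 4 GFP libraries, the lowest by a narrow margin (181 against 180.1 normalised CPM). Of 14315 genes, 1.49% were apart in this direction without that library and 4.93% in either direction. Sdhc had a log2 fold change of 0.58 ± 0.55 (SE) (edgeR p = 0.3, adjusted p = 1, exact permutation p = 0.26). Uqcrh had a log2 fold change of 0.61 ± 0.71 (SE) (edgeR p = 0.4, adjusted p = 1, exact permutation p = 0.97). Leaving out DPP4 replicate 1 turned the Uqcrh value to -0.21, so 1 library decided its sign. On the lower side, Uqcrc1 had a log2 fold change of -0.69 ± 0.62 (SE) (edgeR p = 0.28, adjusted p = 1, exact permutation p = 0.26). Uqcrq had a log2 fold change of -0.71 ± 0.67 (SE) (edgeR p = 0.3, adjusted p = 1, exact permutation p = 0.26). Uqcr11 had a log2 fold change of -0.68 ± 0.69 (SE) (edgeR p = 0.33, adjusted p = 1, exact permutation p = 0.37). Without DPP4 replicate 3 the Sdhc and Uqcrh values were 0.38 and 0.996, and those of Uqcrc1, Uqcrq and Uqcr11 were -0.38, -0.32 and -0.29. Each rests on 4 against 4 libraries, and each interval of these fold changes includes 0 (for Uqcrc2, -0.42 to 1.88).

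No respiratory gene passed the test between the 2 cytoplasmic baits either. In ACTB against GFP, which shares its GFP libraries with the comparison above, 0 of 30 genes were called by edgeR (background 0% of 26470 genes), 0 had an unadjusted p under 0.05 (background 5.61%), and DESeq2 called 0 of the 30 and 73 genes in all. The median log2 fold change was -0.12 for the 30, beside 0.11 over all genes, with 11 higher and 19 lower. No gene had libraries apart (background 2.5%). Cox15 had a log2 fold change of -0.80 ± 0.47 (SE) (edgeR p = 0.11, adjusted p = 0.843, exact permutation p = 0.11). Uqcrq had a log2 fold change of -0.72 ± 0.44 (SE) (edgeR p = 0.12, adjusted p = 0.882, exact permutation p = 0.2). Uqcrc1 had a log2 fold change of -0.71 ± 0.47 (SE) (edgeR p = 0.15, adjusted p = 0.942, exact permutation p = 0.17). The 3 genes with the smallest p on the higher side had smaller changes. Surf1 had a log2 fold change of 0.47 ± 0.54 (SE) (edgeR p = 0.39, adjusted p = 1, exact permutation p = 0.2). Uqcrc2 had a log2 fold change of 0.31 ± 0.38 (SE) (edgeR p = 0.42, adjusted p = 1, exact permutation p = 0.43). Cox8a had a log2 fold change of 0.35 ± 0.43 (SE) (edgeR p = 0.43, adjusted p = 1, exact permutation p = 0.49). Without ACTB replicate 2 the median of the 30 moved to -0.49, and without GFP replicate 3 to 0.18.

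In DPP4 against ACTB, edgeR called 0 of 30 genes (background 0% of 27451 genes), 0 had an unadjusted p under 0.05 (background 6.17%), 0 had libraries apart (background 3.03%), and DESeq2 called 0 of the 30 and 141 genes in all. The median of the 30 was 0.13, beside 0.05 over all genes, and 0.37 without DPP4 replicate 3. Complex II gave the 3 smallest p-values on the higher side, and the 4 subunits had a median of 0.63, or 0.66 without DPP4 replicate 3. Sdhc had a log2 fold change of 0.95 ± 0.54 (SE) (edgeR p = 0.094, adjusted p = 0.898, exact permutation p = 0.11). Sdha had a log2 fold change of 0.66 ± 0.58 (SE) (edgeR p = 0.26, adjusted p = 1, exact permutation p = 0.14). Sdhd had a log2 fold change of 0.60 ± 0.63 (SE) (edgeR p = 0.35, adjusted p = 1, exact permutation p = 0.66). The values of Sdhc and Sdha stayed above 0 without DPP4 replicate 3, at 0.68 and 0.65, and that of Sdhd was 0.82 without DPP4 replicate 3 and -0.07 without DPP4 replicate 1. On the lower side the values were small. Uqcr10 had a log2 fold change of -0.34 ± 0.78 (SE) (edgeR p = 0.66, adjusted p = 1, exact permutation p = 0.57). Uqcrb had a log2 fold change of -0.31 ± 0.81 (SE) (edgeR p = 0.71, adjusted p = 1, exact permutation p = 0.46). Surf1 had a log2 fold change of -0.22 ± 0.57 (SE) (edgeR p = 0.71, adjusted p = 1, exact permutation p = 0.49). Without DPP4 replicate 3 the Uqcr10 and Uqcrb values turned to 0.01 and 0.05, that of Surf1 was -0.001, and 0 genes had libraries apart (background 4.84%).

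**Figure D4:**
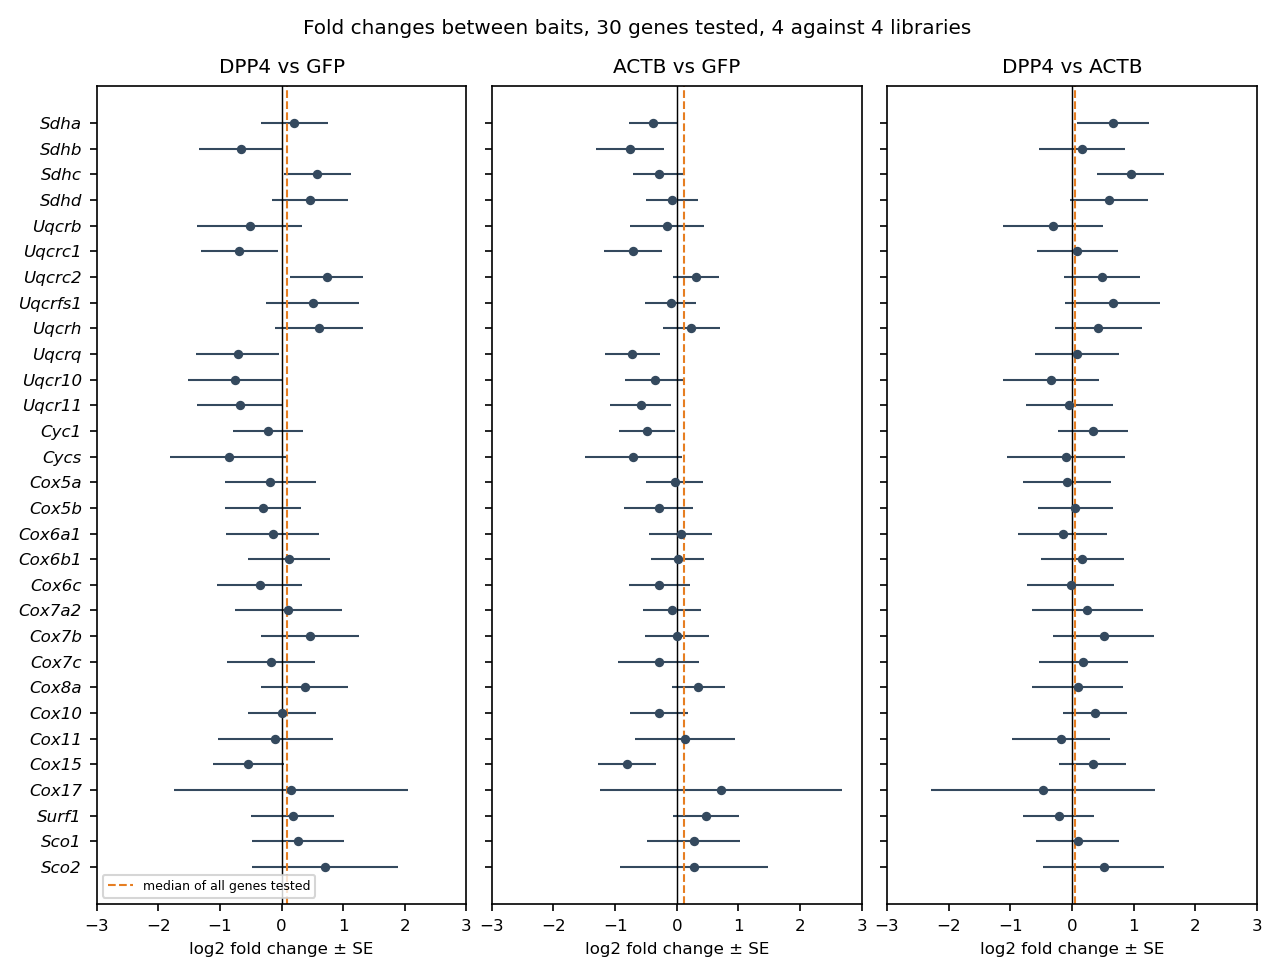
Points are edgeR log2 fold changes (x axis) of the 30 genes tested, with SE, for each pair of baits at 4 against 4 libraries; the dashed line is the median of all genes tested. The points lie between -0.85 and 0.95, and no gene was called in any of the 3 comparisons.

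Libraries of 1 bait spread over several-fold for most of the genes. Within GFP the median ratio of the highest to the lowest library was 2.77 over the 28 genes, within ACTB 2.78, and within DPP4 14.8, or 2.65 without replicate 3. Ratios of the highest to the lowest bait mean ran from 1.09 (Cox6b1) to 1.83 (Sdhc), with a median of 1.41. Without DPP4 replicate 3 they ran from 1.10 (Uqcrb) to 2.08 (Uqcrc2), with a median of 1.497. Means of several libraries vary less than single libraries, so ratios of bait means and ratios within a bait are unlike measures.

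Other genes of the same pathways gave no calls in any of the 3 comparisons either, and neither did any gene of the whole table (background 0%). Of 35 nuclear complex I subunits tested, 0 were called in each, with medians of -0.34 in DPP4 against GFP, -0.43 in ACTB against GFP and -0.004 in DPP4 against ACTB. The 27 other assembly factors of complexes II to IV had medians of -0.49, -0.38 and -0.08 in the same order, the 17 ATP synthase subunits -0.11, -0.24 and 0.04, and the 13 other enzymes of the citric acid cycle 0.17, -0.18 and 0.55. The 11 regulators of mitochondrial biogenesis had medians of -0.26, -0.41 and 0.10, and the 11 or 12 tissue isoforms and associated subunits of complex IV -0.18, 0.29 and -0.23. At an unadjusted p under 0.05 there were 0 complex I subunits and 0 assembly factors, while 2 ATP synthase subunits, Atp5a1 and Atp5b, were higher in DPP4 than in GFP and than in ACTB. The ATP synthase sum was 14760 normalised CPM in DPP4 replicate 3 and 2788 to 9972 in the other 11 libraries. Only 2 of the 17 ATP synthase subunits lay above their own median in DPP4 replicate 3, so most were not high there. Without that library 0 ATP synthase subunits had such a p in either comparison. With all libraries, such a p was also found for 1 citric acid cycle enzyme (Cs) higher in DPP4 than in ACTB, 1 biogenesis regulator lower in DPP4 than in GFP, and 1 tissue isoform of complex IV higher in ACTB than in either other bait. mt-Co2 also had such a p in ACTB against GFP, at 0 normalised CPM in all ACTB libraries and at most 0.298 in GFP. These shares are set against the 5.61% to 6.17% of all genes given above. Without DPP4 replicate 3, the medians in DPP4 against GFP and DPP4 against ACTB were -0.03 and 0.19 for complex I, -0.19 and 0.07 for the other assembly factors, 0.25 and 0.32 for ATP synthase, 0.19 and 0.56 for the citric acid cycle, -0.36 and 0.03 for the regulators and 0.23 and 0.08 for the isoforms. Cs then no longer had such a p, and of the genes in these lists only Ppargc1a, a biogenesis regulator, and Fh1, a citric acid cycle enzyme, had one in a comparison with DPP4, both against GFP (background 4.84% of all genes). Of the mitochondrially encoded partners, mt-Cytb, cytochrome b, stood at 12170, 10190, 1209 and 1884 normalised CPM with DPP4, 4194, 19640, 19570 and 6136 with GFP and 7320, 23850, 2706 and 6068 with ACTB. mt-Co1, the catalytic subunit of complex IV, stood at 9491, 1930, 2824 and 604 with DPP4, 485, 4856, 3809 and 1790 with GFP and 1790, 5206, 1329 and 1177 with ACTB. mt-Co2 and mt-Co3 had at most 0.435 normalised CPM in any of the 12 libraries, with reads of more than 1 genome position left out of the counts.

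At the mitochondrial bait, 26 of 29 respiratory genes differed by at most 2-fold between MITO-1 (read as with H2O2) and MITO-1c (without). The log2 ratio of CPM had a median of -0.01 over the 29 genes with at least 10 counts in the 2 libraries together, beside -0.29 over 15023 genes at that level, whose 10th and 90th percentiles were -4.36 and 1.75. Past 2-fold, 1 gene was higher in MITO-1 (background 16.9%) and 2 were lower (background 31.2%). The background takes in every gene from 10 counts up and was not matched to the respiratory genes by counts. Ratios of genes with few counts vary more, so these shares are not a like comparison. With 1 library for each treatment there is no replicate check, and the intervals cover counting error only.

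Sco1, a copper chaperone of complex IV, had the highest ratio among the 28 genes with at least 50 counts in each library, with 303 counts in MITO-1 and 152 in MITO-1c (16.6 and 8.12 CPM; log2 ratio 1.03, 95% counting interval 0.75 to 1.31). Cox8a was at 275.8 and 192 CPM (0.52, 0.46 to 0.58) and Cox6a1 at 327 and 234 CPM (0.49, 0.43 to 0.54). Cox11, which helps insert copper into the core of complex IV, had the lowest ratio, in reads it may share with Tom1l1, with 70 and 255 counts (3.83 and 13.6 CPM; -1.82, -2.20 to -1.44). Sdha was at 195 CPM in MITO-1 and 416 in MITO-1c (-1.09, -1.15 to -1.03), whereas Sdhb, Sdhc and Sdhd had ratios of 0.17, 0.12 and 0.37. Cox15 was at 34.1 and 59.95 CPM (-0.81, -0.95 to -0.67). Intervals lay above 0 for 13 of the 29 genes (background 33.6%) and below 0 for 11 (background 51.4%). With TMM scaling they lay above 0 for 18 (background 40.5%) and below 0 for 6 (background 44.5%). Relative to the median of all genes, 19 intervals lay above and 4 below, and the share of all genes was not computed for this reference. Intervals are narrower for genes with more counts, so such numbers reflect depth as well as the ratio.

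**Figure D5:**
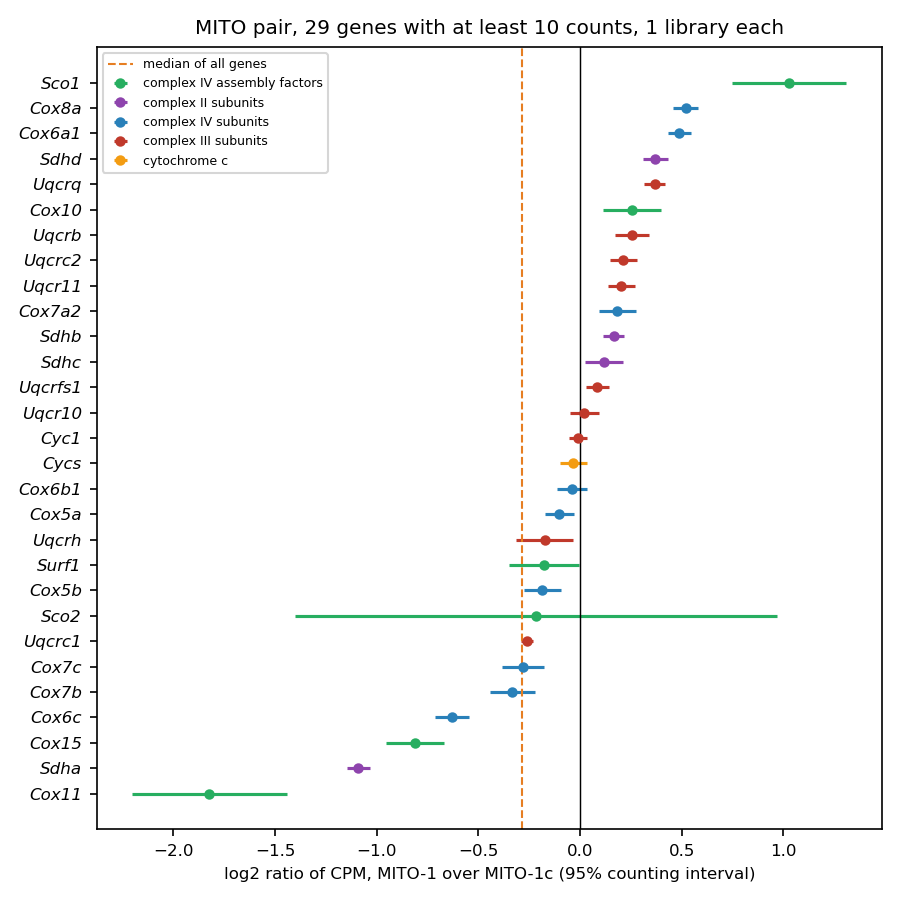
Points are log2 ratios of CPM, MITO-1 over MITO-1c (x axis), of 29 genes with 95% counting intervals, colored by role, from 1 library each. Sco1 (1.03) lies highest and Cox11 (-1.82) and Sdha (-1.09) lowest, and the dashed line at -0.29 is the median of all genes.

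By role, the medians of the log2 ratio were 0.14 for complex II, 0.09 for complex III, -0.10 for complex IV subunits and -0.20 for its assembly factors, and Cycs was at -0.04 (-0.10 to 0.03). TMM scaling moves every ratio by 0.22 and would put the median of the 29 genes at 0.21. Sdha would then be at -0.87, so that Cox11 would be the only gene of the 29 lower past 2-fold. The mitochondrially encoded mt-Cytb was at 12940 CPM in MITO-1 and 20220 CPM in MITO-1c (-0.64, -0.65 to -0.64), and mt-Co1 at 3430 and 3482 CPM (-0.02, -0.04 to -0.01). mt-Co2 had 0 and 5 counts and mt-Co3 had 2 and 5 counts, too few for a ratio. Of 9 mitochondrially encoded protein genes with at least 10 counts, intervals lay below 0 for 7 and above 0 for 1 (mt-Nd3, with 18 and 4 counts), and with TMM scaling below 0 for 6 and above 0 for 2. Of all genes, 51.4% had intervals below 0, and 44.5% with TMM scaling. These 9 genes of the mitochondrial genome, the target of the bait, were thus mostly lower in the library read as with H2O2. Their median was -0.28, beside -0.29 over all 15023 genes, so they sat near the median gene. Other RNA of the mitochondrial genome was not examined. The direction of each MITO ratio rests on the reading of MITO-1c as the control. Cox4i1 and Cox17 had 0 counts in both libraries.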

How the data were processed

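RNA labeled by APEX2 was sequenced from sIOs in 14 libraries. The authors prepared them with the Nextera XT kit, which does not mark strand, trimmed reads with cutadapt 4.0, checked them with FastQC 0.11.9, aligned them with STAR 2.7.9a to GRCm38 and counted them with HTSeq 1.99.2 in its default mode; the deposited values are raw counts per gene, before the removal of libraries, the ComBat-seq correction for preparation dates and TMM that the study applied. Preparation dates of the libraries were not used here. The number of columns of no sample was 0. Counts over nested genes behaved as counts over gene spans on 1 strand, as far as tested on the table. Names and coordinates are from GENCODE M21 (GRCm38), with 54349 of 55401 genes matched by versioned ID. Levels per kilobase use the length of the APPRIS principal transcript. The counts behaved as counts over gene spans, so rankings per kilobase are approximate.

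Baits and replicate numbers came from the titles. The reading of MITO-1c as the control was checked against the study's table of that pair, whose columns name the treatment: each library lay closest to the column of its reading. A pair of baits was compared over its 8 libraries, with genes of at least 5 counts in all, TMM scaling and edgeR 4.0.16's robust quasi-likelihood test with Benjamini-Hochberg adjustment over all genes (R 4.3.3). Calls needed more than a 2-fold difference with an adjusted p under 0.05. DESeq2 1.42.0 was an alternative, with other size factors, filters, a replicate block, 1 fit of all 12 libraries, libraries left out, and offsets by 20 classes of gene span (added after the data were seen). Exact permutation tests were two-sided over 70 arrangements of log2 (normalised CPM + 0.5). MITO ratios had 0.5 counts added and no test. The method was tested on simulated counts that varied less between libraries than these. That test does not measure the power of the comparisons here.

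The genes and lists were chosen with earlier results of these data known. Fold changes are given for the 3 genes in each direction with the smallest p per comparison, and levels for these and for the highest and lowest gene per kilobase of each role; Cox7a2, Cox10, Sdhb and genes counted by name beside DPP4 replicate 3 were named after their values were seen.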

Additional observations from a re-analysis of the deposited data

Results flagged for a closer look

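Of 84 sets of 4 libraries (28 genes in 3 baits), 3 had a library far from the other 3, by a gap over range above Dixon's 95% critical value on the log2 scale; chance alone flags about 1 set in 20. Sdhd was highest in ACTB replicate 2, at 557 normalised CPM against 234 to 259 in the other 3 ACTB libraries. Cox6a1 was highest in GFP replicate 3, at 597 against 147 to 176. Cox11 was lowest in ACTB replicate 1, at 7.22 against 13.2 to 14.1. DPP4 replicate 3 gave none of the 3 by this rule, although 21 of the 28 genes had their lowest value of the 12 libraries there.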

How the results depend on the processing

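0 of the 30 respiratory genes were called under every alternative run, in all 3 comparisons. Of 288 values of the 18 fold changes under the alternatives, 281 kept their direction and none passed the test. An unadjusted p under 0.05 arose with 1 library left out for Uqcrc2 and Cycs in DPP4 against GFP (without DPP4 replicates 3 and 1), Sdhb, Uqcrc1 and Uqcrq (without ACTB replicate 2) and Cox15 (without GFP replicate 4) in ACTB against GFP, and Cycs in DPP4 against ACTB (without DPP4 replicate 1). The 7 that turned were Uqcrh in DPP4 against GFP without DPP4 replicate 1 (-0.21); in DPP4 against ACTB, Surf1 with gene span offsets (0.001), Sdhd without DPP4 replicate 1 (-0.066), Uqcr10 and Uqcrb without DPP4 replicate 3 (0.01 and 0.05) and both without ACTB replicate 2 (0.16 and 0.17). With 1 library left out, these ran from -0.21 to 1.02 for Uqcrh, from -0.066 to 1.03 for Sdhd, from -0.86 to 0.16 for Uqcr10 and from -1.01 to 0.17 for Uqcrb. With 1 library left out, the median of the 30 ran from -0.39 to 0.23 in DPP4 against GFP, from -0.49 to 0.18 in ACTB against GFP and from -0.28 to 0.51 in DPP4 against ACTB.

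Genes called over the whole table, 0 in each comparison, were 6 in DPP4 against GFP with no filter on low counts and 48 with DESeq2; 73 in ACTB against GFP with DESeq2, and 0 to 10 with 1 library left out (1 without GFP replicate 1, 10 without ACTB replicate 2); and 60 in DPP4 against ACTB with no filter on low counts, 166 with the replicate block, 141 with DESeq2, and 0 to 56 with 1 library left out (56 without ACTB replicate 2). The cause was not tested. Replicate numbers did not pair the libraries: same-numbered libraries correlated from -0.67 to 0.51, and not every library correlated best with its own number; with the replicate block the medians of the 30 were -0.15, -0.12 and -0.14. In the MITO pair, TMM scaling moved the median to 0.21 and the genes past 2-fold from 3 to 2. Few counts limit Cox17 and Sco2, with 149 and 1821 over the 14 libraries, and most of their spans lie within another gene on the same strand.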
